A study of Schmidtea mediterranea with 9 samples.

Results

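Monoamines such as serotonin and dopamine are made from aromatic amino acids in a short series of enzyme steps. Here 3 transcripts of planarian enzymes of this kind were followed across ovary, testis and captured non-gonadal tissue. They were *aadc* (SMED30020439), *tph1* (SMED30012020) and *henna* (SMED30004098), taken by the identifiers under which the study names them. They are 3 of the 36036 transcripts with counts. The study took up *aadc* after finding it enriched in ovary in these same libraries, so its rise in ovary here is no independent evidence. The libraries came from wild-type worms of the sexual strain of *Schmidtea mediterranea*, a flatworm that carries ovaries and testes in the same animal. Laser-capture microdissection, which cuts chosen areas out of stained frozen sections, was used to collect ovary, testis and non-gonadal tissue, with 3 libraries for each. The captures of 14 worms went into each ovary library, with 10 worms cut across and 4 sagittally, and those of 6 worms, 4 cut across and 2 sagittally, into each testis or non-gonadal library. No worm was treated, and the sources used here give neither the age of the worms nor whether tissues with the same replicate number came from the same worms. The p-values below therefore measure the spread between pools of captures.

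In animals, tryptophan hydroxylase adds a hydroxyl group to tryptophan, which is the step that commits it to serotonin, and aromatic amino acid decarboxylase (AADC) then removes the carboxyl group. The same decarboxylase turns DOPA into dopamine, so its transcript alone does not tell which amine a cell makes. In *Drosophila*, the gene called *Henna* encodes a phenylalanine hydroxylase that also acts on tryptophan, outside the nerve cells that use a separate neuronal enzyme. The planarian *tph1* and *henna* are named for these 2 hydroxylases. In asexual planarians AADC is best known as an enzyme of serotonin neurons, though it is not limited to nerve cells, and *tph1* is a transcript of nerve cells.

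Part of the sequence that the study lists under the name *aadc* for its probe and double-stranded RNA is shown here. It was not aligned to the transcript that was counted. Only the first 399 bases were at hand, and the listed sequence is longer. In them the longest open reading frame that starts with ATG runs from base 186 to base 398, with 36.2% G or C. These 213 bases stop at the last whole triplet before the cut, where the frame is still open. The same frame holds 3 stop triplets before that ATG. The frame is printed 5′ to 3′ with its ATG in capitals.

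*aadc*, open part of the listed sequence: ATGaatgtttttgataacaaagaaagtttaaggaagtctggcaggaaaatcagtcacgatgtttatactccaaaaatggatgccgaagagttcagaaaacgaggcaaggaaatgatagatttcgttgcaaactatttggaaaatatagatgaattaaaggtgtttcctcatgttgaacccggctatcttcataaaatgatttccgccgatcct

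No sequence of *tph1* or *henna* was at hand. The transcripts measured here were 1797 nt (*aadc*), 1774 nt (*tph1*) and 2144 nt (*henna*) long, as recovered from the counts and the length-scaled values, so the 3 differ little in the room they offer to reads.

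TPM gives the level of a transcript corrected for its length, on a scale with 1 fixed total for all libraries. Total counts lay between 18611584 and 25730833 per library. The ovary range overlapped those of testis and non-gonadal tissue, but every testis library held more counts than every non-gonadal library. Transcripts of known tissues were set beside the labels. The study found *zfs1* through these same libraries and *lecg* in a search among ovary-enriched transcripts. Their rise in ovary is thus no independent check of the captures. *zfs1*, a female germ cell transcript, had a level of 143 ± 14.5 TPM (SD, n = 3) in ovary against 3.29 ± 1.91 in non-gonadal tissue, and a single count in the 3 testis libraries. The oocyte transcript *lecg* had 2917 ± 123 TPM in ovary, and the testis transcript *sped-1* had 8083 ± 384 TPM in testis against 63.4 ± 24.4 in ovary and 25.0 ± 11.8 in non-gonadal tissue. *nf-yb* was likewise highest in testis, at 331 ± 29.1 TPM against 48.9 ± 1.74 in ovary, and *nanos*, of early germ cells, was at 11.4 ± 0.996 TPM in non-gonadal tissue, 30.0 ± 4.26 in testis and 66.2 ± 5.68 in ovary. Ovary and testis transcripts were thus low but present in the non-gonadal libraries, where replicate 2 held 520 counts of *lecg* against 129 and 124 in the others. Apart from *tph1* itself for nerve cells, the sources used here give no transcript identifier for markers of nerve cells, eye pigment cups or yolk glands, and the part that RNA of such cells had in the values below was not tested.

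*aadc* was the enzyme transcript that set the ovary apart. The ovary libraries held 3208, 4281 and 3270 *aadc* counts, the testis libraries 385, 308 and 407, and the non-gonadal libraries 343, 459 and 420. In TPM *aadc* stood at 84.8, 103 and 90.4 in ovary. It stood at 9.28, 6.70 and 8.89 TPM in testis and at 9.16, 10.5 and 10.5 TPM in non-gonadal tissue. Every ovary library lay far above the other 6, and the testis and non-gonadal ranges overlapped. Among all 36036 transcripts, 95.5% to 96.0% had a lower TPM than *aadc* in the ovary libraries, against 75.8% to 78.1% in testis and 79.6% to 81.2% in non-gonadal tissue.

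The mean *aadc* level was 92.8 ± 9.35 TPM in ovary, 10.1 ± 0.793 in non-gonadal tissue and 8.29 ± 1.39 in testis (SD, n = 3). In the edgeR quasi-likelihood test on the counts, with libraries scaled by the trimmed mean of M-values (TMM), *aadc* in ovary was 5.92-fold above its level in non-gonadal tissue. The log2 fold change was 2.56, with a standard error of 0.12 and an edgeR adjusted p of 2.31e-09. Against testis it was 5.35-fold higher in ovary (log2 fold change 2.42, standard error 0.12, edgeR adjusted p = 7.51e-10). The folds depend on the scale. TMM factors were 1.37 to 1.39 in ovary and 0.670 to 0.727 in testis, and with libraries scaled by size alone the log2 fold changes of *aadc* in ovary were 2.98 against non-gonadal tissue and 3.38 against testis. On log2(TPM + 0.1) in limma they were 3.19 and 3.48. Between testis and non-gonadal tissue the log2 fold change of *aadc* was 0.15, with a 95% interval from −0.12 to 0.41 (edgeR adjusted p = 0.273), and it had no settled sign. Scaled by library size alone it was −0.40, and without non-gonadal replicate 1 it was −0.013.

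A call required at least a 2-fold change and an adjusted p of at most 0.01 over the 18416 transcripts that passed the filter on low values. By this rule 18.3% of the transcripts tested were called higher and 18.8% lower in ovary when set against non-gonadal tissue. In ovary against testis 31.6% were called higher and 30.4% lower, and in testis against non-gonadal tissue 33.4% were called higher and 35.1% lower. A call alone is therefore common in these tissues. The log2 fold change of *aadc* exceeded that of 94.8% of the transcripts tested in ovary against non-gonadal tissue and that of 89.8% in ovary against testis. All 3 members were among the transcripts tested, *tph1* through its ovary and non-gonadal libraries alone.

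RNA carried over from neighbouring tissue can be set beside the lower *aadc* levels. In testis *aadc* stood at 8.94% of its ovary TPM, *lecg* at 3.39% and *zfs1* at 0.0216% of their own. *zfs1* had 3869 counts in ovary and 1 in testis. The 2 ovary transcripts thus gave very different shares in testis. There *lecg* was also 9.06-fold above its non-gonadal level (edgeR adjusted p = 7.49e-06). In non-gonadal tissue *aadc* stood at 10.9% of its ovary level, *zfs1* at 2.30% and *lecg* at 0.503%. Non-gonadal replicate 2 held the most counts of both ovary transcripts, and its *aadc* level was 10.5 TPM, as in replicate 3. By in situ hybridization, which shows a transcript in tissue, the study found *aadc* in somatic cells of both gonads and in yolk glands. Its antibody staining found AADC protein in somatic cells of both gonads. The part of carried-over RNA in the *aadc* levels measured here was not tested. In captured tissue of mixed cells, a lower level may mean fewer cells that hold the transcript or less of it in each, and the 2 cannot be told apart.

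**Figure D1:**
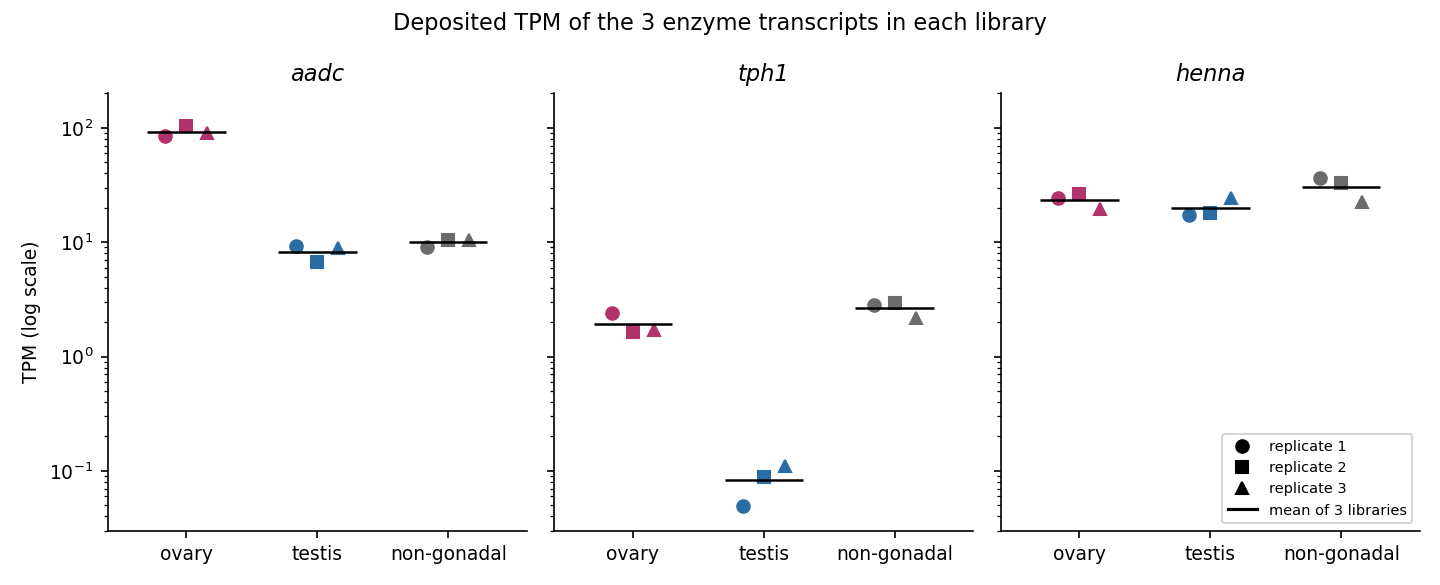
TPM (log scale) of *aadc*, *tph1* and *henna* in each library, with a point per library, its shape giving the replicate, and a line at the mean of the 3 libraries of a tissue. *aadc* is between 84.8 and 103 TPM in ovary and at most 10.5 elsewhere, *tph1* is at most 0.111 TPM in testis, and the ranges of *henna* overlap.

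*tph1* was the lowest of the 3 enzymes in every library and was scarcest in testis. Of all transcripts, 64.9% to 67.2% had a lower TPM than *tph1* in the non-gonadal libraries and 58.6% to 63.0% in ovary. In testis the share was 29.5% to 36.4%. The testis libraries held 2, 4 and 5 *tph1* counts, against 105, 126 and 85 in non-gonadal tissue and 89, 67 and 61 in ovary. These were 0.0488, 0.0882 and 0.111 TPM in testis, 2.84, 2.93 and 2.16 TPM in non-gonadal tissue and 2.38, 1.63 and 1.71 TPM in ovary. Each testis library lay below each of the other 6, while the ovary and non-gonadal ranges overlapped in TPM. The 11 testis counts carry an exact 95% Poisson interval from 5.49 to 19.7, which covers counting error alone, since PCR copies of a molecule were not told apart.

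Mean *tph1* levels were 2.64 ± 0.421 TPM in non-gonadal tissue, 1.91 ± 0.413 in ovary and 0.0825 ± 0.0313 in testis (SD, n = 3). In the count test *tph1* in testis was 22.9-fold below its non-gonadal level (log2 fold change −4.52, standard error 0.35, edgeR adjusted p = 5.46e-08), and it was 10.7-fold higher in ovary than in testis (log2 fold change 3.42, standard error 0.37, edgeR adjusted p = 1.84e-06). Only 4.57% of the transcripts tested had a lower log2 fold change in testis against non-gonadal tissue. The testis level was 3.12% of the non-gonadal one in TPM. On log2(TPM + 1) in limma, a scale that understates the change of low transcripts, the log2 fold changes were −1.74 and 1.42, and both calls held. For *tph1* the filter on low values was met in the ovary and non-gonadal libraries, and its TMM-scaled CPM (counts scaled for library size and composition) in testis was 0.124 to 0.287.

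Between ovary and non-gonadal tissue the difference in *tph1* was small and depended on the scale. The log2 fold change was −1.09 (95% interval −1.60 to −0.59, edgeR adjusted p = 0.00104), which passed the rule narrowly. On the TMM scale the libraries did not overlap, with CPM of 3.15, 1.88 and 2.16 in ovary and 5.48, 5.63 and 4.17 in non-gonadal tissue. With libraries scaled by size alone the log2 fold change was −0.68, without ovary replicate 2 it was −0.93, and on log2(TPM + 0.1) in limma it was −0.46 (adjusted p = 0.105), and in each case the call was lost.

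Mean *henna* levels differed less between the tissues in TPM than those of *aadc* and *tph1*, and *henna* was the most abundant of the 3 enzymes outside the ovary. The ovary libraries held 1098, 1318 and 837 *henna* counts, the testis libraries 849, 985 and 1325, and the non-gonadal libraries 1619, 1719 and 1080. In TPM the ovary values were 24.3, 26.6 and 19.4, those of testis 17.1, 18.0 and 24.3, and the non-gonadal ones 36.2, 33.1 and 22.7. The 3 ranges overlapped, with the non-gonadal libraries 1 and 2 above all others and replicate 3 within the ovary range. That library was also the lowest of its tissue for *tph1*, but not for *aadc*.

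Mean *henna* levels were 30.7 ± 7.08 TPM in non-gonadal tissue, 23.4 ± 3.68 in ovary and 19.8 ± 3.89 in testis (SD, n = 3). Neighbours in this order overlapped, and so did its ends, through non-gonadal replicate 3 at 22.7 TPM and testis replicate 3 at 24.3 TPM. The count test gave a log2 fold change of −1.02 in ovary against non-gonadal tissue (95% interval −1.42 to −0.62, edgeR adjusted p = 0.000296), at the edge of the 2-fold rule. In ovary against testis it gave −0.82 (95% interval −1.22 to −0.42, adjusted p = 0.00107), short of 2-fold, and in testis against non-gonadal tissue −0.20 (95% interval −0.60 to 0.20, edgeR adjusted p = 0.316). On the TMM scale the ovary libraries, at CPM of 38.9, 36.9 and 29.7, lay below the testis libraries at 52.8, 57.7 and 76.1 and the non-gonadal libraries at 84.5, 76.8 and 53.0.

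The *henna* value in ovary against non-gonadal tissue was negative under both scalings and in TPM, but the call depended on the scale, and against testis so did the sign. By library size alone the log2 fold change in ovary was −0.60 against non-gonadal tissue and 0.14 against testis, and on log2(TPM + 0.1) it was −0.37 and 0.25. In testis against non-gonadal tissue these scales gave larger differences than TMM, at −0.75 by library size alone (95% interval −1.16 to −0.34, edgeR adjusted p = 0.00206) and −0.62 on log2(TPM + 0.1) (limma adjusted p = 0.0106), each under 2-fold. With TMM the value in ovary against non-gonadal tissue stood at −0.95 without non-gonadal replicate 1 and at −0.91 without ovary replicate 3, both under 2-fold, whereas that in ovary against testis passed the rule without testis replicate 1 (−1.13) or replicate 2 (−1.06). With TMM the sign in testis against non-gonadal tissue turned without testis replicate 1 (0.11) or replicate 2 (0.0071).

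Changing the scaling moved all transcripts together. The median log2 fold change over the transcripts tested was 0.025 with TMM and 0.44 by library size alone in ovary against non-gonadal tissue, −0.10 and −0.65 in testis against non-gonadal tissue, and 0.22 and 1.19 in ovary against testis. Of the calls in ovary against non-gonadal tissue, 49.3% were higher in ovary with TMM and 69.0% by library size alone, and in ovary against testis these shares were 51.0% and 69.9%. Such a shift moves a transcript and the median by nearly the same amount, so values measured from the median agree between scalings by construction. Their agreement does not settle the sign or the call. Measured from the median of all transcripts, *henna* in ovary stood at a log2 value of −1.05 against non-gonadal tissue under both scalings, and at −1.04 against testis under both. In the same comparisons *aadc* stood 2.54 above the median against non-gonadal tissue under both, and 2.20 above it against testis. *tph1* stood at −1.12 against non-gonadal tissue in ovary under both, and in testis at −4.41 with TMM and −4.40 by library size.

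**Figure D2:**
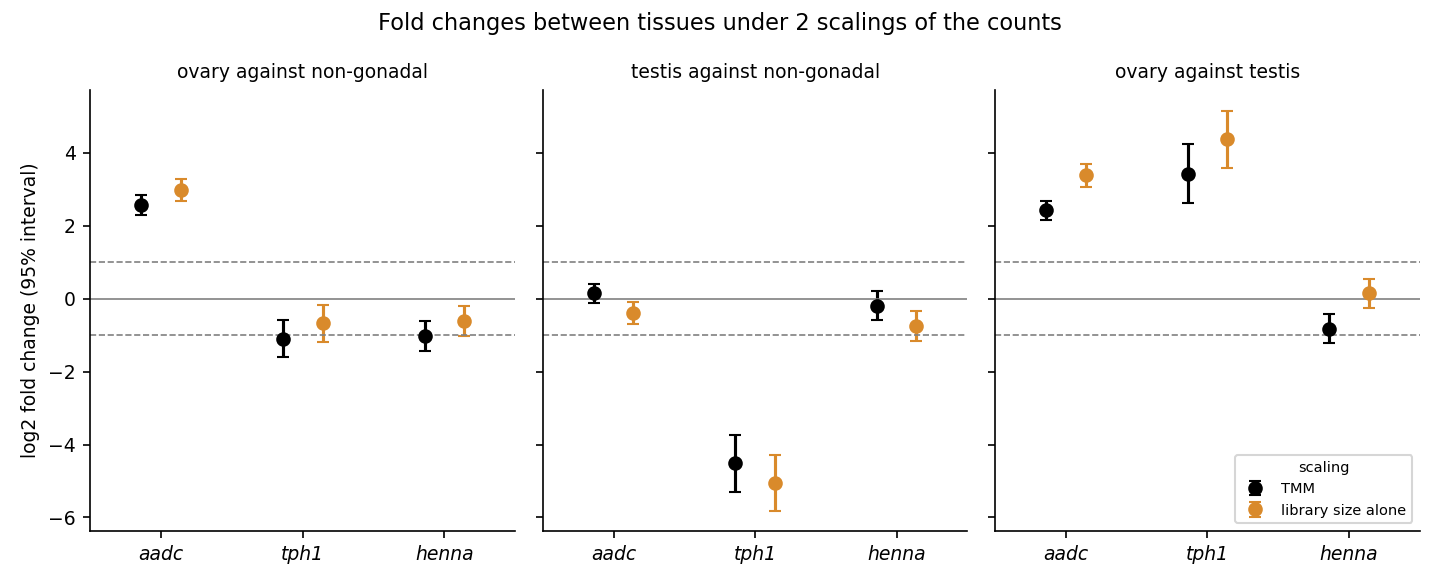
Log2 fold change (y axis) of each enzyme transcript in the 3 comparisons, with 95% intervals, for TMM scaling (black) and library size alone (orange), and dashed lines at 2-fold. *aadc* stays above 2-fold in both ovary comparisons and *tph1* beyond 2-fold in both testis comparisons, while *henna* in ovary against testis goes from −0.82 to 0.14.

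Tested over the 3 tissues together, *aadc* and *tph1* differed in TPM and *henna* did not pass. The exact permutation test of the F statistic on log2(TPM + 0.1), over all 1680 ways to assign the 9 libraries to tissues, gave p = 0.00714 for *aadc* and p = 0.00714 for *tph1*, near the smallest value it can give, 0.00357. For *henna* it gave p = 0.136 in TPM by the same exact test and p = 0.0143 on CPM after TMM. These are 3 tests with unadjusted p-values. A permutation test of 3 libraries against 3 cannot go below 0.1, so pairs of tissues were compared in the model over all transcripts alone.

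The ratio of one enzyme transcript to another within a library does not change with the library's scaling. *aadc* to *henna*, per transcript length, was 3.49, 3.88 and 4.66 in the ovary libraries. In testis it was 0.541, 0.373 and 0.366, and in non-gonadal tissue 0.253, 0.319 and 0.464. Decarboxylase transcripts thus outnumbered *henna* transcripts in every ovary library and in none of the other 6. The mean ratio was 0.345 ± 0.108 in non-gonadal tissue, 0.427 ± 0.0989 in testis and 4.01 ± 0.599 in ovary (SD, n = 3), and the first pair of ranges overlapped.

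Of the 2 hydroxylases, *henna* was the more abundant in every library, and by far the more so in testis. *henna* to *tph1* was 10.2, 16.3 and 11.4 in ovary and 12.8, 11.3 and 10.5 in non-gonadal tissue, ranges that overlapped. In testis it was 351, 204 and 219, far above every value elsewhere. The summed testis counts gave a ratio of 238 with a counting interval from 133 to 476, so its size is loosely set by the 11 *tph1* counts, but its lower end lies well above the ovary and non-gonadal ratios. The means were 12.6 ± 3.22 in ovary and 11.5 ± 1.14 in non-gonadal tissue (SD, n = 3), closer together than their spread.

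The ranges of *aadc* to *tph1* did not overlap between the tissues. It was 3.22, 3.60 and 4.88 in non-gonadal tissue, 35.6, 63.1 and 52.9 in ovary and 190, 76.0 and 80.4 in testis. The summed counts gave 48.9 in ovary, with a counting interval from 42.8 to 56.2, and 98.7 in testis, from 55.0 to 198, so the intervals of the gonads overlapped, and without testis replicate 1 the testis mean fell from 115 to 78.2. The non-gonadal ratio, at 3.82 with an interval from 3.37 to 4.33, lay below both. The high ovary ratio went with a high *aadc* level and the high testis ratio with a low *tph1* level. Ordered by level, the enzymes were *aadc*, *henna* and *tph1* in each ovary library, and *henna*, *aadc* and *tph1* in each of the other 6.

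**Figure D3:**
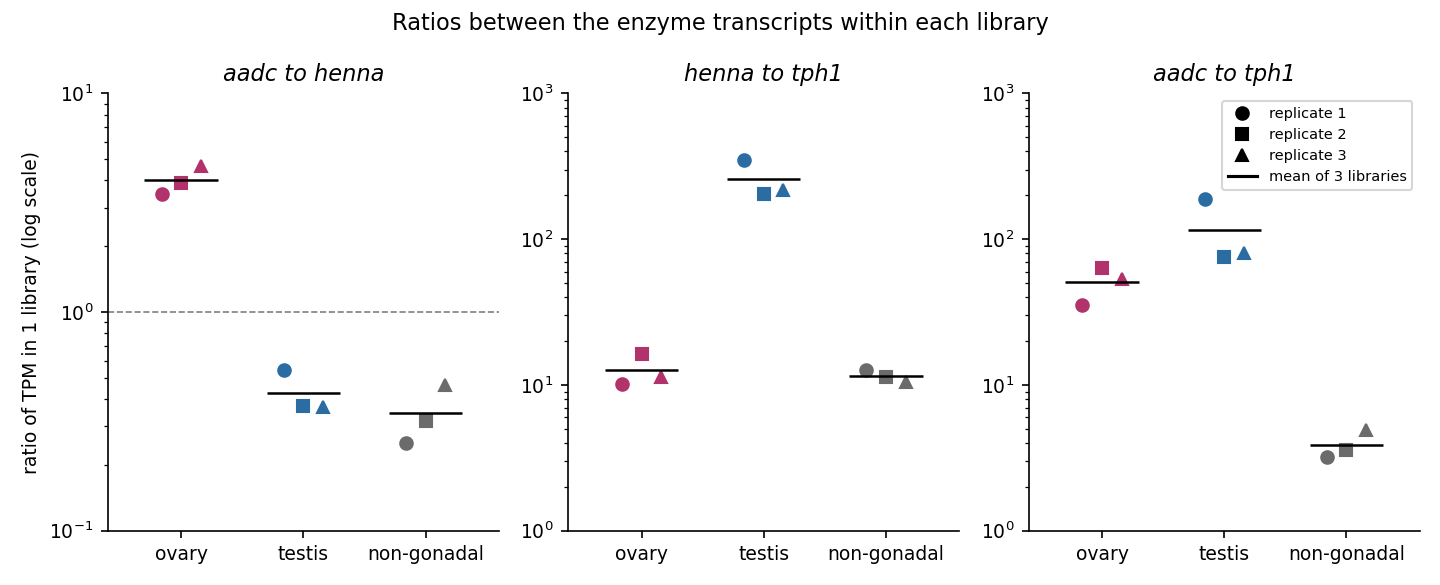
Ratio of TPM between enzyme transcripts within each library (log scale), a point per library and a line at the mean of 3, with a dashed line where *aadc* equals *henna*. *aadc* to *henna* is 3.49 to 4.66 in ovary and at most 0.541 elsewhere, *henna* to *tph1* is 204 to 351 in testis and at most 16.3 elsewhere, and *aadc* to *tph1* is lowest in non-gonadal tissue.

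Other transcripts of amine and tryptophan biology came from the study's own list of ovary-enriched transcripts, which was chosen on these libraries, so their rise in ovary is no independent evidence. Of 5 such transcripts, named here by their best SwissProt match, 5 were called higher in ovary against non-gonadal tissue, where 18.3% of all transcripts tested were, and 5 in ovary against testis, where 31.6% were, as the list was made to hold. Their median log2 fold change was 3.21 against 0.025 over all transcripts tested in the first comparison. In testis against non-gonadal tissue 3 of the 5 were called lower, where 35.1% of all transcripts tested were, and 2 were not called. Those 3 passed the filter on low values through their ovary libraries alone, so nothing is read from their count.

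These 3 receptor-like transcripts were at 7.27 TPM or less in every tissue mean. The transcript nearest to a serotonin receptor of the snail *Lymnaea* (5HTR_LYMST, SMED30003867) had 7.27 ± 0.490 TPM in ovary against 0.292 ± 0.0260 in non-gonadal tissue, and 3 counts in all of testis. Its scaled counts in ovary were 153 times those in testis, with a counting interval from 52.3 to 746. This interval covers counting error alone, and the value is a description only, since the list was chosen on these libraries. The transcript nearest to a *Drosophila* serotonin receptor (5HT1R_DROME, SMED30005303) had 2.78 ± 0.152 TPM in ovary, 0.565 ± 0.0251 in non-gonadal tissue and 0.186 ± 0.0522 in testis. The transcript nearest to a human melatonin receptor (MTR1B_HUMAN, SMED30008791) had 114 counts in ovary, 19 in non-gonadal tissue and 0 in testis. The exact Poisson interval of the testis count reached up to 3.69. With a floor of 3 counts set for the testis libraries, its scaled counts in ovary were 20.8 times that floor. Those in non-gonadal tissue were 5.17 times the floor. These values leave out the counting error of the 114 and 19 counts, so they are not lower limits.

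The remaining pair were highest in ovary, with testis and non-gonadal tissue close to each other. The transcript nearest to a mouse vesicular acetylcholine transporter (VACHT_MOUSE, SMED30001666), of the family that also loads amines into vesicles, had 34.1 ± 1.45 TPM in ovary, 2.26 ± 0.457 in non-gonadal tissue and 3.15 ± 0.223 in testis. The transcript nearest to rat kynureninase (KYNU_RAT, SMED30005062), an enzyme that breaks tryptophan down along the kynurenine route, had 132 ± 15.2 TPM in ovary, 9.17 ± 0.939 in non-gonadal tissue and 8.99 ± 2.10 in testis. In testis against non-gonadal tissue their log2 fold changes were 0.91 and 0.40, with edgeR adjusted p-values of 8.34e-05 and 0.0297, and neither passed the rule. A SwissProt match names a similar protein and not a tested function in planarians.

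The transcripts most like each enzyme were found by the distance between their profiles of log2 CPM over the 9 libraries, each centred on its own mean. Nearest to *aadc* were SMED30017965 (distance 0.297, with mean TPM of 5.68 in non-gonadal tissue, 4.89 in testis and 50.3 in ovary), SMED30023251 (0.334) and SMED30030223 (0.358), against a median distance of 4.50, and 116 transcripts lay within 1. Nearest to *tph1* were SMED30005245 (0.619), SMED30035648 (0.670, with mean TPM of 39.7 in non-gonadal tissue, 1.72 in testis and 30.6 in ovary) and SMED30014783 (0.715). For *tph1* the median distance was 5.45 and 45 transcripts lay within 1, with the testis part of its profile resting on 11 counts. Nearest to *henna* were SMED30031959 (0.559), SMED30034361 (0.581) and SMED30011967 (0.596), with 203 transcripts within 1 and a median distance of 3.44. None of these 9 has a name in the sources used here.

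**Figure D4:**
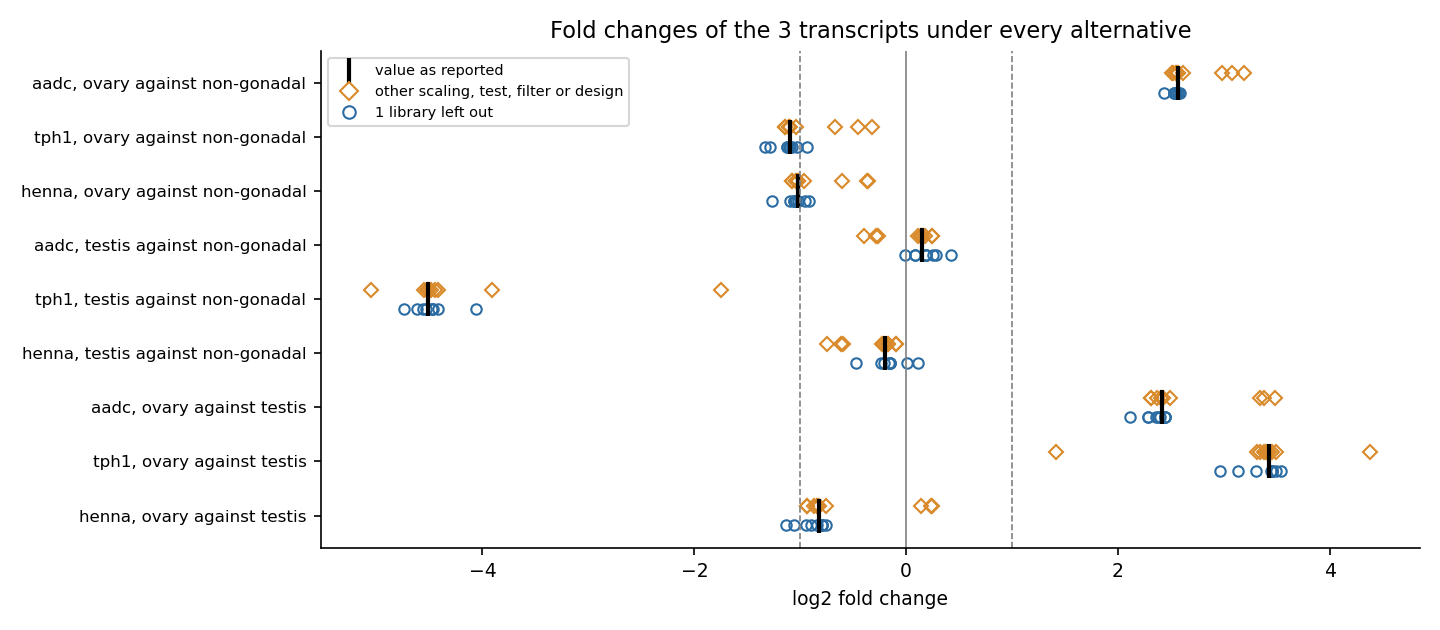
Log2 fold change (x axis) of each enzyme transcript in each comparison as reported (bar), under another scaling, test, filter or design (diamonds) and with 1 library left out (circles), with dashed lines at 2-fold. Values for *aadc* in ovary stay above 2 and those for *tph1* in testis against non-gonadal tissue stay below −1, while those for *henna* in ovary against testis fall on both sides of 0.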

How the data were processed

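RNA from 9 laser-captured pools was sequenced as 100 nt single-end reads from stranded libraries. The authors used CLC Genomics Workbench to trim these, to map them to the assembled transcriptome smed_20140614 plus *zfs1*, and to make the raw count per transcript that they deposited. The program's version and how it counted multiply matching reads are not given in the sources used. The authors also deposited RPKM (scaled by transcript length and library total) and TPM, which has the same sum in each library. The deposited CPM are a signal rather than plain CPM. A composition factor is in them, as their sums show, which were 724797 to 738721 in ovary, 949095 to 976200 in non-gonadal and 1323232 to 1582270 in testis libraries. They had been planned as plain CPM and served only for the filter on low values. The authors' own fold change, log fold change and adjusted p columns, for each comparison, were not used. All 324324 counts were equal in the 2 tables.

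Samples were grouped by the tissue in their labels, and no library was left out. Transcripts with at least 1 deposited CPM in at least 3 libraries (18416, 51.1%) were tested with edgeR 4.0.16 in R 4.3.3 by the quasi-likelihood test in 1 model of 9 libraries, with TMM scaling and Benjamini-Hochberg adjustment. The standard error is the log2 fold change over the square root of F. Profiles used log2 CPM with a prior count of 2. The code was tested on simulated data. Alternatives were DESeq2 1.42.0 size factors and its Wald test, library size alone, limma 3.58.1 on log2 TPM with a pseudocount of 0.1 or 1, no filter or filterByExpr, the 2 tissues alone, each library left out, a replicate block, glmTreat against 1.5-fold, an adjusted p of 0.05, and other scales for the exact test. Totals of 18611584 to 21654320 counts (non-gonadal), 20629642 to 25730833 (ovary) and 22157475 to 25537267 (testis) set the precision of low transcripts. The named transcripts are the 3 enzymes, the 5 amine and tryptophan entries in the rows at hand of the study's ovary list, 5 tissue markers, and the 3 nearest profiles of each enzyme. The enzymes and these lists were chosen with earlier results of these data known.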

Additional observations from a re-analysis of the deposited data

How the results depend on the processing

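Of 171 alternative values for the 3 enzymes, 148 kept the direction and the call of the value reported, and in the others the cause was not tested. By library size alone, *tph1* and *henna* in ovary against non-gonadal tissue were −0.68 and −0.60 on the log2 scale, *aadc* in testis against non-gonadal tissue −0.40 and *henna* in ovary against testis 0.14. In the same order limma gave −0.46, −0.37, −0.29 and 0.25 on log2(TPM + 0.1), and −0.33, −0.36, −0.26 and 0.24 on log2(TPM + 1). With the 2 tissues alone, *henna* was −0.97 in ovary against non-gonadal tissue. With glmTreat against 1.5-fold, *tph1* (−1.09, edgeR adjusted p = 0.0164) and *henna* (−1.02, adjusted p = 0.0112) lost their calls there. The exact p of *henna* over the tissues was 0.0143 on CPM after TMM.

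With each library left out in turn, *tph1* ranged from −1.33 to −0.93 and *henna* from −1.27 to −0.91 in ovary against non-gonadal tissue. *aadc* ranged from −0.013 (without non-gonadal replicate 1) to 0.42 and *henna* from −0.47 to 0.11 in testis against non-gonadal tissue, and *henna* from −1.13 to −0.76 in ovary against testis. The exact p of *henna* ranged from 0.0286 (without non-gonadal replicate 3) to 0.293. *aadc* in ovary against non-gonadal tissue kept its call, at 2.43 to 2.58, as did *tph1* in testis, at −4.74 to −4.06. The count of calls stayed within 1.5 times of the reported one under every alternative.

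The replicate numbers were not shown to pair the libraries. Deviations of same-numbered libraries correlated at −0.022 to 0.19 over 9 pairs, and those of other numbers at −0.24 to 0.11 over 18. With the replicate block the calls numbered 6743 in ovary against non-gonadal tissue, 12578 in testis against non-gonadal tissue and 11393 in ovary against testis, against 6830, 12618 and 11430 without it, and no enzyme changed its call. At these depths *tph1* in testis rests on 11 counts.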
